A study of Mus musculus with 2 samples.

Results

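Genes of cilium assembly and of the ciliary axoneme were examined in 661W, a mouse cell line of photoreceptor origin. The members are all genes on the array whose name begins with Cfap, Ift, Bbs, Dnah, Nphp, Tctn or Rsph followed by a digit. The rule uses names only and found 84 of the 29608 genes on the array, covered by 141 probes. The tested cells were 661W cells grown for 3 days in DMEM/F12 lacking choline. They were compared with 661W cells grown for the same 3 days in DMEM/F12 that the labels describe as choline-sufficient (8.98 g/L). That concentration is printed as the labels have it and could not be checked here. Fetal bovine serum is part of the growth medium in the labels for both groups, and the sources used here do not say whether it was depleted of choline. There was 1 single-colour Agilent array for either condition, and the design text mentions pooling over 4 dishes. Differences therefore lack a check by replicates, and p-values were not computed.

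A cilium is built on a basal body by intraflagellar transport (IFT), in which trains of IFT-B and IFT-A proteins carry cargo along the microtubule doublets of the axoneme. The BBSome moves membrane proteins on these trains, and a transition zone at the base, which holds nephrocystins and tectonics, controls entry. Most cells carry a single immotile primary cilium, whereas dynein heavy chains, radial spoke proteins and many cilia- and flagella-associated proteins (CFAP) belong to motile axonemes. The photoreceptor outer segment is a modified primary cilium that depends on IFT, and mutations of many BBS, IFT and NPHP genes cause retinal degeneration in humans.

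Many ciliary genes share the X-box, the site of the RFX transcription factors, in their promoters. RefSeq promoter windows on build GRCm38.p6, from 250 bases before to 50 after the gene start, were matched by symbol for 68 of the 84 members. The X-box half-site GTTGCC, searched on both strands, was in the windows of 28 of these members (41.2%) and of 14.1% of the 27025 genes with a window. The inverted repeat, spelled as GTNNCC and GGNAAC with any 2 bases between them and also searched on both strands, was in 11 members (16.2%) and in 1.49% of all genes. A half-site can lie inside the repeat, so the counts overlap. The repeat was found in Bbs1, Bbs4, Bbs7, Cfap206, Cfap20dc, Cfap298, Ift22, Ift57, Nphp4, Tctn1 and Tctn2. It began before the gene start in 8 of these and after it in Bbs1, Bbs4 and Tctn1. A match of letters is a description and does not show that a factor binds there.

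The sites before the gene start are printed because the repeat is a sequence feature that the choice of members by name did not use and that the members carry more often than all genes. Each is given 5′ to 3′ on the strand of its gene, with the repeat in capitals and up to 20 bases on each side. In Cfap206, the first site of Ift22, Ift57 and Tctn2 the capitals fit the spelling only when read on the opposite strand. On the minus strand lie those of Bbs7 at chr3:36613477-36613530, Cfap206 at chr4:34730207-34730249, Cfap20dc at chr14:8666359-8666412 and Cfap298 at chr16:90935004-90935057. On the plus strand lie those of Ift22 at chr5:136908067-136908120 and, overlapping it, chr5:136908097-136908149. Those of Ift57 at chr16:49699187-49699240, Nphp4 at chr4:152477892-152477944 and Tctn2 at chr5:124598667-124598720 are also on the plus strand.
Bbs7: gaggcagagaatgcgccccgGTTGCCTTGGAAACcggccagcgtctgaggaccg
Cfap206: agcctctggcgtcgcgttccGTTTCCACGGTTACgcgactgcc
Cfap20dc: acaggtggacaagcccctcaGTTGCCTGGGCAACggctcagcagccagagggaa
Cfap298: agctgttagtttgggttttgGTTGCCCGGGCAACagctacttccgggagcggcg
Ift22, first site: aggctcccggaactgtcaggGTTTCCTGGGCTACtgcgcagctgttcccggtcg
Ift22, second site: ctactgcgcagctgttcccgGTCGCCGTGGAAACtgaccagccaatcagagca
Ift57: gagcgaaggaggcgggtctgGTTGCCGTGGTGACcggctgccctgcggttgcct
Nphp4: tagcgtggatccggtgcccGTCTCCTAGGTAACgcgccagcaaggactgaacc
Tctn2: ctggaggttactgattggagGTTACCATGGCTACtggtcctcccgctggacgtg

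The choline-deficient array had 70.7% of its spots well above background by the scanner software's call and the choline-sufficient array 68.5%. Over all genes, 19816 (66.9%) had a probe well above background and not saturated on both arrays, called measured here. A further 993 genes were above background on the choline-deficient array only and 360 on the choline-sufficient array only. The photoreceptor label was set against cone and rod marker genes. Of 14 cone markers 8 were measured, a further 2 were above background on the choline-deficient array only and 1 on the choline-sufficient array only. Measured cone markers included the cone transducin gene Gnat2, whereas Crx, the photoreceptor transcription factor gene, Opn1sw and Cngb3 were above background on neither array. Of the measured cone markers, Opn1mw, Arr3, Gnb3, Pde6h and Thrb were dim, between -8.16 and -5.14. Gnat2, Gngt2 and Rxrg were brighter, between -3.39 and -0.53. Of 8 rod markers 3 were measured, all similarly dim, between -7.75 and -5.32, and Nrl, the rod transcription factor gene, was above background on neither array.

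Of the 84 members, 65 were measured on both arrays, 7 were above background on the choline-deficient array only, 1 on the choline-sufficient array only and 11 on neither. The 28 genes of IFT, the BBS proteins, the nephrocystins and the tectonics were all measured. Of the 55 genes of dynein heavy chains, radial spokes and CFAP proteins, 37 were measured and 10 were above background on neither array. The last member, Ift88os, named as an opposite-strand gene of Ift88, was also above background on neither array. Of the dynein, spoke and CFAP genes, the 10 above background on neither array were Dnah1, Dnah3, Dnah5, Dnah9, Dnah12, Cfap44, Cfap47, Cfap54, Cfap97d1 and Cfap97d2. Dnah5 and Dnah9 encode heavy chains of the outer dynein arm of motile cilia.

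**Figure D1:**
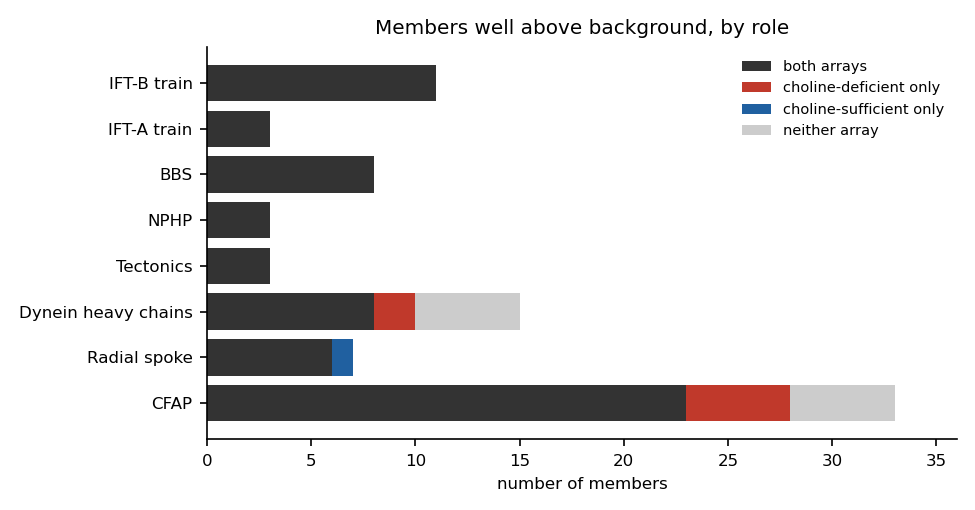
Number of members in each role (horizontal axis) by the array on which at least 1 probe was well above background; each bar is split into both arrays, the choline-deficient array only, the choline-sufficient array only and neither. All IFT-A, IFT-B, BBS, NPHP and tectonic bars lie in the class of both arrays, whereas 8 of 15 dynein heavy chain genes do.

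Values below are log2 processed signals relative to the array's own 75th percentile, called levels, and differences are choline-deficient minus choline-sufficient levels. Errors (±) come from the scanner software and cover the measurement of these arrays, not the spread between cultures. A gene past 1.5-fold, a difference of 0.58 on the log2 scale, is called higher or lower. In these RNA samples, fewer cells of a type and less RNA per cell cannot be told apart.

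More ciliary genes were higher than lower on the choline-deficient array. Of the 65 measured members 16 (24.6%) were higher and 2 (3.08%) lower, against 14.8% higher and 14.1% lower over all 19816 measured genes. The median difference of the members was 0.30, that of all measured genes -0.096. A difference above 0 was found in 43 of the 65 members (66.2%), against 42.6% of all genes. At 2-fold, 6 members (9.23%) were higher and 0 lower, against 7.67% and 3.88% of all genes, so the higher share was then near that of all genes. All 18 called members differed by more than 2 scanner errors. No test across samples bears on these counts.

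The counts moved with the way the arrays were scaled and the background was treated. With the arrays scaled to spike-in probes, 31 members (47.7%) were higher and 0 lower, where 24.2% of all genes were higher and 5.97% lower. Higher members then made up 100% of those called, against 88.9% with the scaling used here. This scaling adds the same 0.27 to every difference, so the members' median stayed 0.40 above that of all genes. Normexp background correction, which fits the background anew and adds a constant of 50 to every signal, left 5 members (7.69%) higher and 1 (1.54%) lower, where 8.42% of all genes were higher and 10.3% lower. The median after normexp was -0.065 for the members and -0.20 for all genes.

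**Figure D2:**
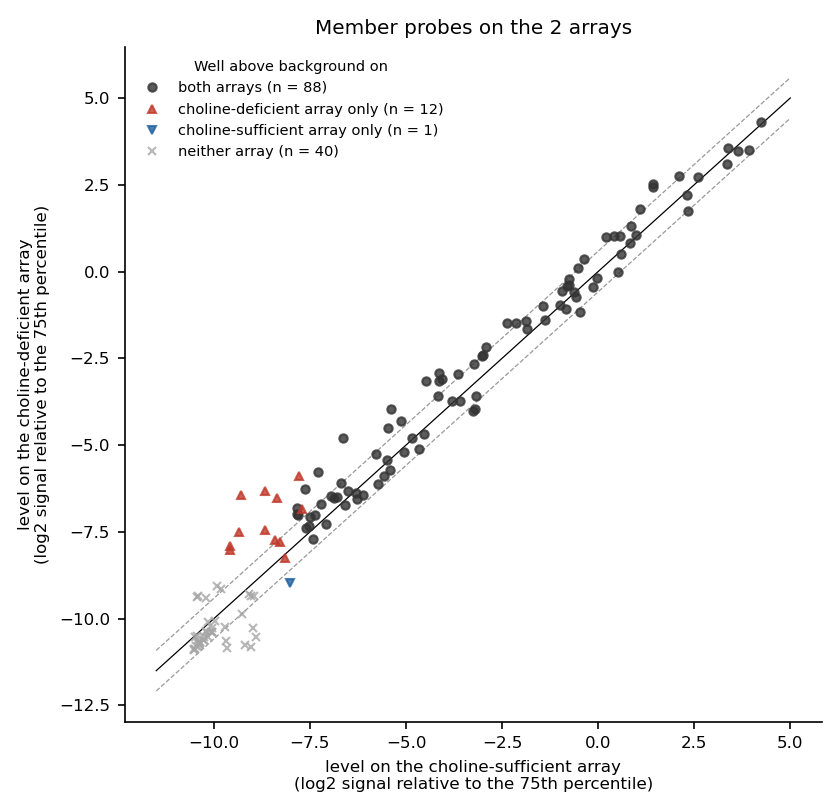
Level of each of the 141 member probes on the choline-deficient array (vertical axis) against the choline-sufficient array (horizontal axis), in log2 signal relative to the array's 75th percentile; the solid line marks equal levels and the dashed lines 1.5-fold, and symbols show on which arrays the probe was well above background. The 12 probes above background on the choline-deficient array only lie toward the dim end of both axes, as do the 40 above background on neither.

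Higher members were found in each range of level. Among the 22 members with a mean level below -5, 6 were higher and 0 lower, where 15.4% of all genes in that range were higher and 12.8% lower. Among the 15 members at a mean level of 0 and over, 4 were higher and 1 lower, where all genes in that range were 9.02% higher and 16.2% lower. In the range from -5 to -2, 4 of 13 members were higher and 1 lower, against 20.9% and 12.3%, and from -2 to 0, 2 of 15 were higher and 0 lower, against 16.8% and 14.5%.

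The IFT-B complex, which works with kinesin-2 in transport toward the ciliary tip, held genes that differed either way. Of its 11 members 2 were higher (18.2%) and 1 was lower (9.09%), against 14.8% and 14.1% of all measured genes. Their median difference was -0.0092. Ift88, whose loss prevents cilium formation in mice, had a level of 0.99 on the choline-deficient and 0.21 on the choline-sufficient array, a 1.72-fold difference (0.78 ± 0.20). Ift80, a gene of a thoracic dystrophy with ciliary defects in humans, stood at 1.81 (choline-deficient) against 1.08 (choline-sufficient), 1.67-fold higher (0.74 ± 0.20). Both calls held under every other scaling and under the background correction that was run. Each of these genes has 1 probe, so the filters and probe choices could not change its value. Ift20, whose product is also found at the Golgi and sorts membrane proteins toward the cilium, was lower, at 1.73 on the choline-deficient and 2.33 on the choline-sufficient array (-0.60 ± 0.20, 1.51-fold). It lies just past the threshold, and under the other scalings and background correction its difference ran between -0.72 and -0.33.

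The other IFT-B members lay between -0.46 and 0.43. Ift22, a gene of a small GTPase, was nearest to 0, with levels of -1.40 and -1.39 on the choline-deficient and choline-sufficient arrays (-0.0092 ± 0.20). Ift46 and Ift27, a gene of a GTPase that links trains to BBSome exit, had differences of -0.46 ± 0.20 and -0.43 ± 0.20. The tubulin-binding partners Ift74 and Ift81 had 0.43 ± 0.20 and -0.15 ± 0.20. The 2 probes of Ift74 disagreed, at 0.99 for the probe of NM_026319 and -0.13 for that of NM_001290568.

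In IFT-A, which serves transport back to the base and the entry of membrane proteins, Ift43 stood apart from the other 2 members. Its level was 2.51 on the choline-deficient and 1.42 on the choline-sufficient array, 2.13-fold higher (1.09 ± 0.20; probe on mm9 chromosome 12, 87503290 to 87503349). The call held under every alternative run for single genes, between 0.97 and 1.36. Ift43 has 1 probe, so the filters and probe choices could not change its value. The core subunit genes Ift122 and Ift140 were close to equal on both arrays, at 0.0064 ± 0.20 and 0.064 ± 0.22. Ift122 had levels of -0.07 and -0.08 on the choline-deficient and choline-sufficient arrays, and its 2 probes, at -0.021 and 0.034, lay on opposite sides of 0.

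No BBS gene reached 1.5-fold higher. Bbs5, a gene of the BBSome subunit that binds phosphoinositides, was the only one of the 8 past the threshold (12.5%, where 14.1% of all measured genes were lower). Its level was -2.57 on the choline-deficient and -1.84 on the choline-sufficient array, 1.66-fold lower (-0.73 ± 0.20), with its 2 probes at -0.77 and -0.69. It was -0.46 with spike-in scaling, under the threshold. Of the chaperonin-like genes needed for BBSome assembly, Bbs10 was just short of it on the higher side, at 1.49-fold (0.58 ± 0.21), and Bbs12 had 0.45 ± 0.20. Among the BBSome subunits, Bbs2 had 0.57 ± 0.20, Bbs9 0.35 ± 0.20 and Bbs4 -0.54 ± 0.20. Bbs7 was nearest to 0, at -0.20 ± 0.20, with levels of -0.64 and -0.44 on the choline-deficient and choline-sufficient arrays. The 2 probes of Bbs1 had opposite signs, 0.96 and -0.31, and their mean was 0.32 ± 0.20.

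At the transition zone, Nphp4, a gene of a nephrocystin that takes part in the protein network of the zone, had a level of -3.04 on the choline-deficient and -3.59 on the choline-sufficient array (0.55 ± 0.23) and was not called. The level is a mean over 3 probes, which stood at 0.35, -2.45 and -7.02 on the choline-deficient array. With its brightest probe alone (0.72), after cyclic loess (0.59) or with spike-in scaling (0.82) Nphp4 passed the threshold, and after normexp it was 0.25. The 3 tectonic genes, of the module that guards ciliary membrane composition, all lay above 0, with Tctn2 at 0.46 ± 0.20, Tctn3 at 0.45 ± 0.20 and Tctn1 at 0.20 ± 0.21. The 2 probes of Tctn1 disagreed, at 0.73 and -0.33. Over the 28 genes of IFT, BBS, NPHP and tectonics, 4 were higher (14.3%) and 2 lower (7.14%), shares near or below those of all genes. Their median difference was nonetheless 0.26, against -0.096 for all genes, and 64.3% of them lay above 0, against 42.6%. After normexp the median of these 28 was 0.13 and that of all genes -0.20.

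**Figure D3:**
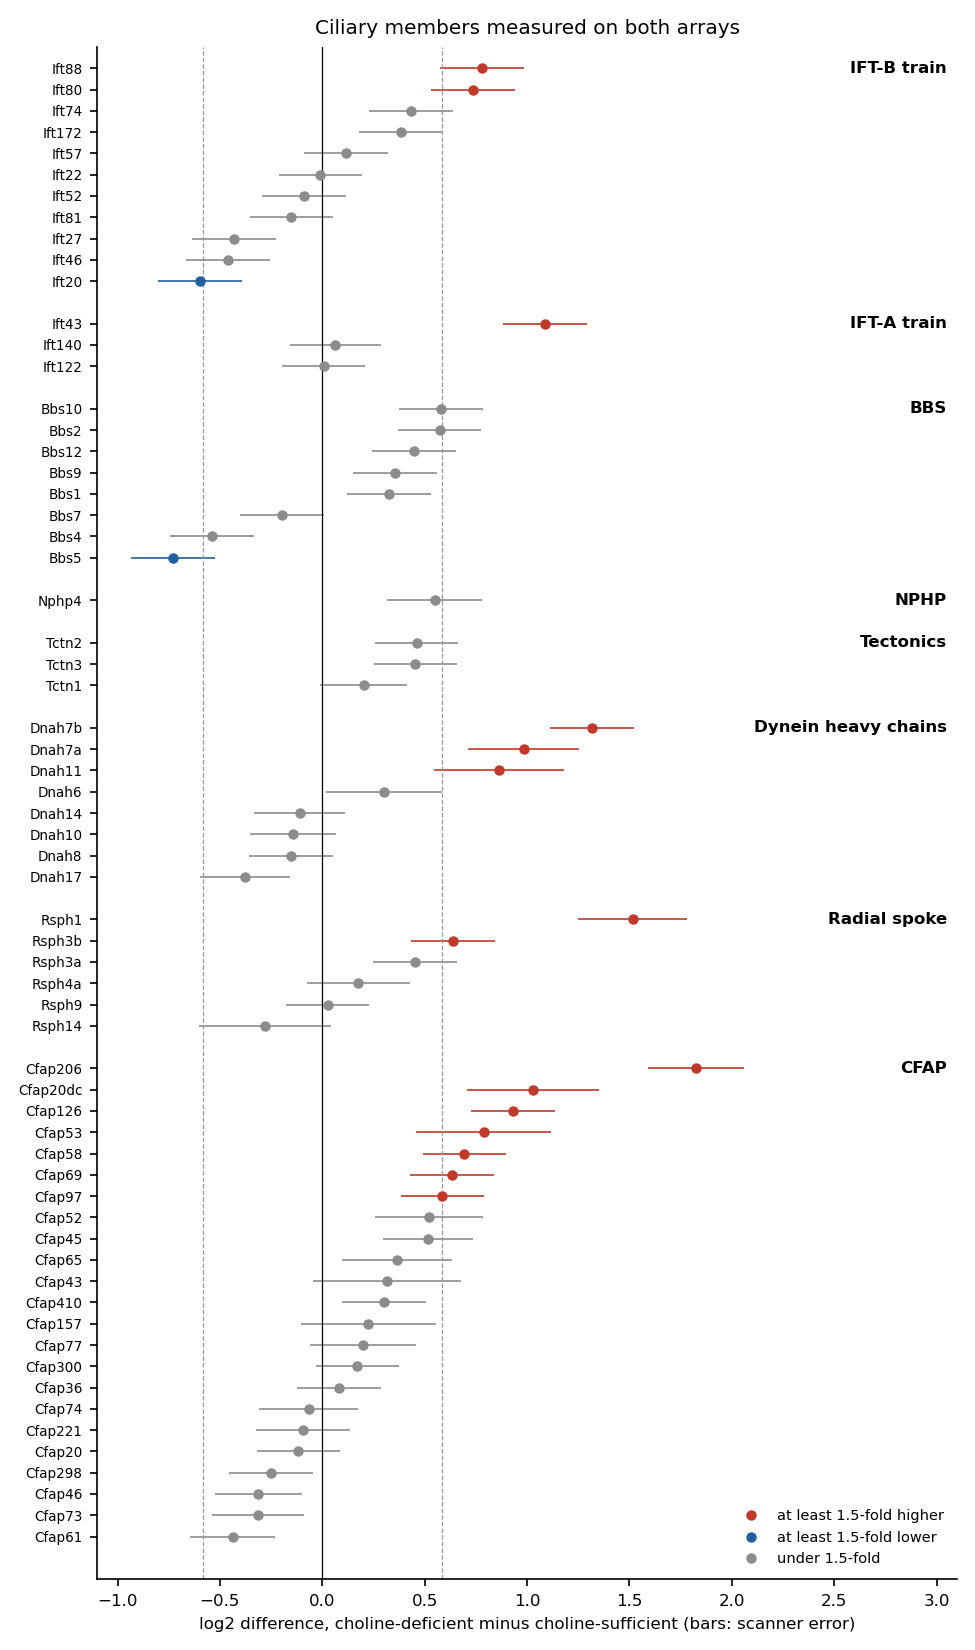
Log2 difference of 63 measured members, choline-deficient minus choline-sufficient (horizontal axis), grouped by role and sorted within each role; bars are the scanner error for 1 array per group and dashed lines mark 1.5-fold. The higher members reach 1.82 (Cfap206), and the 2 lower members, Ift20 and Bbs5, both belong to transport roles.

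The genes of dynein heavy chains, radial spokes and CFAP proteins, grouped by name, held most of the higher members. Of the 37 of these that were measured, 12 were higher (32.4%) and 0 lower, against 14.8% and 14.1% of all measured genes. Their median difference was 0.30, that of all measured genes -0.096. Many of these probes were dim: 20 of the 37 had a level under -5 on both arrays. After normexp correction 2 of the 37 were higher, Dnah7b and Rsph3b, where 8.42% of all genes were higher. The median of the 37 was then -0.13 and that of all genes -0.20. The sign of the median of these genes thus turned with the background correction.

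Among the dynein heavy chains, the motors of ciliary beating, 3 of 8 measured genes were higher (37.5%), against 14.8% of all measured genes. Dnah7b, of the single-headed inner arm type, had a level of -3.16 on the choline-deficient and -4.48 on the choline-sufficient array, 2.49-fold higher (1.32 ± 0.21; probe on mm9 chromosome 1, 46430286 to 46430345). Its second probe was above background on the choline-deficient array only, which gave at least 3.73-fold, and the third on neither. Dnah7a stood at -6.17 (choline-deficient) against -7.15 (choline-sufficient), 1.98-fold higher (0.98 ± 0.27), with probes at 0.60 and 1.37. Dnah7a, Dnah7b and Dnah7c are close paralogs on chromosome 1, and how far their probes share signal was not tested. Dnah11, of the outer arm, stood at -6.97 (choline-deficient) against -7.84 (choline-sufficient), 1.82-fold higher (0.86 ± 0.32). After normexp Dnah7a and Dnah11 were at -0.065 and -0.11.

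The other 5 measured dynein genes lay between -0.38 and 0.30, with Dnah14 nearest to 0 at -0.11 ± 0.22 and its 2 probes of opposite sign, 0.055 and -0.28. Levels of Dnah14 were -5.67 on the choline-deficient and -5.56 on the choline-sufficient array. Dnah8 and Dnah17, outer arm genes best known from sperm, had -0.15 ± 0.21 and -0.38 ± 0.22. A second probe of each was above background on the choline-deficient array only and ran the other way, at least 1.26-fold higher for Dnah8 and at least 1.40-fold for Dnah17. With all probes averaged, dim ones included, Dnah8 was at 0.39 and Dnah17 at -0.030. The inner arm gene Dnah2 and Dnah7c were above background on the choline-deficient array only, at least 1.72-fold and at least 1.64-fold higher. These bounds set the dim side at the lowest signal that was well above background on that array, or at the probe's own signal where that was higher.

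Radial spokes regulate the dyneins from the central pair. Rsph1, of the spoke head, had a level of -5.78 on the choline-deficient and -7.30 on the choline-sufficient array, 2.86-fold higher (1.52 ± 0.27). Its second probe was above background on the choline-deficient array only, at least 1.36-fold, and with this dim probe averaged in the gene's difference was 1.0. After normexp it was 0.12. Rsph3b, a spoke stalk gene, stood at 2.75 (choline-deficient) against 2.11 (choline-sufficient), 1.56-fold higher (0.64 ± 0.20), and was 0.52 with median scaling. Its paralog Rsph3a, with 3 probes between 0.083 and 0.84, had 0.45 ± 0.21, and the probes of the pair may share signal, which was not tested. Of the other spoke genes, Rsph9 was nearest to 0, at -0.60 on the choline-deficient and -0.63 on the choline-sufficient array (0.026 ± 0.20), Rsph14 had -0.28 ± 0.32 and Rsph4a 0.18 ± 0.25 with probes of opposite sign, 0.48 and -0.13. Rsph6a, known from sperm flagella, was the only member above background on the choline-sufficient array alone, where the bound puts the choline-deficient side lower by at least 1.5-fold.

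CFAP genes contributed 7 of the 16 higher members and none of the lower. These 7 are 30.4% of the measured CFAP genes, against 14.8% higher over all measured genes. Cfap206, named from a protein at the base of the radial spokes in Chlamydomonas, had the largest difference among the 65 members measured on both arrays. Its level was -4.81 on the choline-deficient and -6.63 on the choline-sufficient array, 3.54-fold higher (1.82 ± 0.23; probe on mm9 chromosome 4, 34658582 to 34658641). Its other probe was above background on neither array, and with that probe averaged in the difference was 0.74. After normexp it was 0.41. Cfap20dc stood at -6.80 (choline-deficient) against -7.83 (choline-sufficient), 2.04-fold higher (1.03 ± 0.32), and was -0.065 after normexp. Cfap126, which encodes the basal body protein Flattop, stood at -2.32 (choline-deficient) against -3.26 (choline-sufficient), 1.91-fold higher (0.93 ± 0.20), and its 2 probes, at 0.90 and 0.96, were close together. After normexp it was 0.58, just under the threshold.

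The next CFAP genes were nearer to the threshold. Cfap53, a gene of left-right asymmetry, stood at -7.03 (choline-deficient) against -7.81 (choline-sufficient) (0.79 ± 0.33) and was -0.16 after normexp. Cfap58, needed for the sperm flagellum in mice, stood at -2.94 (choline-deficient) against -3.64 (choline-sufficient), 1.62-fold higher (0.69 ± 0.20). Cfap69, of sperm flagella and olfactory cilia in mice, stood at -0.23 (choline-deficient) against -0.86 (choline-sufficient), 1.55-fold higher (0.63 ± 0.20), with both probes at 0.63. One of its probes was printed in 10 spots, whose differences had an SD of 0.025. Cfap97 stood at -0.053 (choline-deficient) against -0.64 (choline-sufficient) (0.59 ± 0.20), on the threshold itself. Normexp took these 4 genes under the threshold, and median scaling took Cfap58, Cfap69 and Cfap97 under it as well.

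Of the 16 CFAP genes that were measured and not called, 9 lay above 0 and 7 below, from -0.44 for Cfap61 to 0.52 for Cfap52. A second probe of Cfap61 was above background on the choline-deficient array only, yet its own signals differed by -0.11 ± 0.48. Cfap74 was nearest to 0, with levels of -1.50 and -1.43 on the choline-deficient and choline-sufficient arrays (-0.066 ± 0.24). Of its 4 probes 2 were measured, with opposite signs, 0.070 and -0.20. The first was bright, at 4.30 (choline-deficient) and 4.23 (choline-sufficient), and the other dim, at -7.29 and -7.08, so the mean level matches neither. Cfap20, of the junction inside the doublet microtubule, had -0.12 ± 0.20 over 10 spots with an SD of 0.041. Genes with a role in dynein arm or ciliary assembly were also not called, Cfap298 at -0.25 ± 0.20, Cfap300 at 0.17 ± 0.20 and Cfap410 at 0.30 ± 0.20. The genes Cfap100, Cfap161, Cfap299, Cfap57 and Cfap70 were above background on the choline-deficient array only. The bounds were at least 3.47-fold higher for Cfap100, 3.28-fold for Cfap299 and 1.15-fold for Cfap57. For Cfap161 and Cfap70 the probe's own dim signal was used, so their values are estimates and not bounds. They were 3.71-fold (1.89 ± 0.36) and 1.83-fold (0.87 ± 0.39) higher. That 7 members were above background on the choline-deficient array only and 1 on the other stands beside 993 and 360 genes of the whole array.

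**Figure D4:**
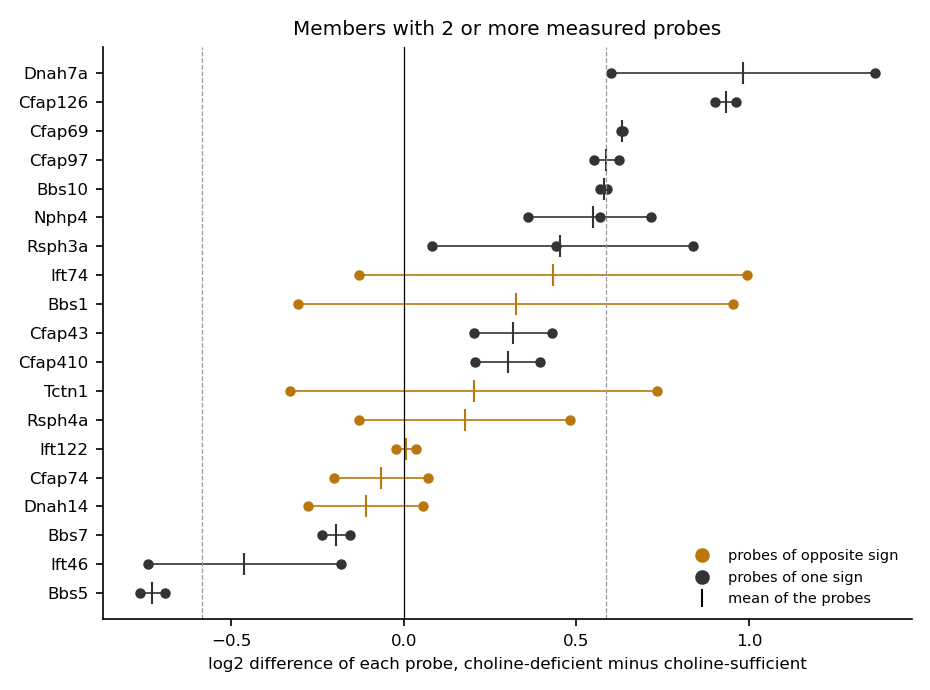
Log2 difference of each measured probe (points), choline-deficient minus choline-sufficient, for 19 members with 2 or more such probes; the short vertical bar is their mean, which is the value of the gene, and dashed lines mark 1.5-fold. Probes of 7 members lie on both sides of 0, most widely in Bbs1, Ift74 and Tctn1, whereas none of the called members is among these 7.

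In 7 of the 20 members with 2 or more measured probes these had opposite signs, namely Bbs1, Cfap74, Dnah14, Ift122, Ift74, Rsph4a and Tctn1, and none of these was called. With the brightest probe of each gene in place of the mean, Bbs10, Ift74, Nphp4 and Tctn1 joined the higher members, 20 in all.

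Promoters with the X-box letters were found among members that differed and members that did not pass 1.5-fold. The half-site was in 6 of 11 higher members with a promoter window, in 1 of 2 lower and in 16 of 40 measured members that were not called. The inverted repeat was in 2, 0 and 9 of these. The 11 members with the repeat had a median difference of 0.20 and ran from Bbs4 at -0.54 to Cfap206 at 1.82, and the 42 measured members without it had a median of 0.30. Of the genes whose sites are printed, Cfap206 and Cfap20dc were higher and the other 6 were not called.

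Genes that work with the members were followed in lists chosen by role. The counts stand beside 14.8% higher and 14.1% lower over all measured genes. Hedgehog signalling, which in vertebrates passes through the primary cilium, had 7 of 16 measured genes higher, and the median difference was 0.39. The ligand gene Ihh was lower (-0.98 ± 0.21). Its target and effector gene Gli1 stood at -1.56 on the choline-deficient and -3.29 on the choline-sufficient array, 3.33-fold higher (1.74 ± 0.20). The co-receptor genes Cdon and Gas1 were 2.27-fold and 2.22-fold higher, while Ptch1, a target and the receptor, differed by 0.11 ± 0.21. Shh was above background on neither array.

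Other IFT genes and the transport motors had 4 of 17 higher and 0 lower, with Wdr19 and Wdr35 of IFT-A at 0.79 ± 0.24 and 0.67 ± 0.20, Dync2h1, the heavy chain of the IFT dynein, at 0.72 ± 0.20 and the IFT-B gene Ttc30a2 at 0.67 ± 0.21. The kinesin-2 gene Kif3a was not called, at -0.49 ± 0.20. Of the BBSome and recruitment genes outside the name rule, 0 of 10 were called in either direction. Their largest difference was that of Ttc8, a BBSome subunit gene, at 0.52 ± 0.20. Of the transition zone and inversin genes 2 of 18 were higher and 1 lower. Nek8, the kinase gene of the inversin compartment, was 2.41-fold higher (1.27 ± 0.20), and Tmem17 had 0.61 ± 0.20. B9d2 was 1.57-fold lower (-0.65 ± 0.20).

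Genes of axonemal dynein, its assembly and docking had 6 of 21 higher and 1 lower, the median difference was -0.015, and 6 of the 30 on the array were above background on neither array. Ropn1l, of the radial spoke, was 3.93-fold higher (1.97 ± 0.20), and the assembly factor gene Dnaaf3 was also higher (1.92 ± 0.21). The assembly factor gene Dnaaf4 was lower (-0.76 ± 0.21). Regulators of ciliary transcription had 5 of 13 higher and 1 lower, and the median difference was -0.024. Mcidas, among the higher ones, was on the threshold itself (0.59 ± 0.20). Rfx2 was 1.72-fold higher (0.78 ± 0.21), Rfx3 was at -0.23 ± 0.22, and Foxj1, the master gene of motile cilia, was at -5.96 on the choline-deficient and -6.39 on the choline-sufficient array (0.43 ± 0.22). The largest differences in this list were those of Ccno, 2.30-fold lower, E2f5, 2.20-fold higher, and Myb, 2.08-fold higher.

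Basal body and centriole genes had 2 of 18 higher and 1 lower, the lower one being Cep97, a gene of a complex that holds back cilium formation, at 3.37-fold (-1.75 ± 0.20). Ccdc78 and Cep89 were 1.80-fold and 1.53-fold higher. Of 8 genes of cilium disassembly Nedd9 was 2.73-fold higher (1.45 ± 0.20), Nek2 1.58-fold lower and Aurka at -0.50 ± 0.20. In the photoreceptor cilium list 3 of 7 measured genes were higher and 0 lower, and the median difference was -0.14. The photoreceptor cadherin gene Cdhr1 was 11.9-fold higher (3.57 ± 0.20), Fam161a 3.28-fold and Prcd 3.06-fold, while Rp1, Rp1l1, Pcare and Mak were above background on neither array.

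**Figure D5:**
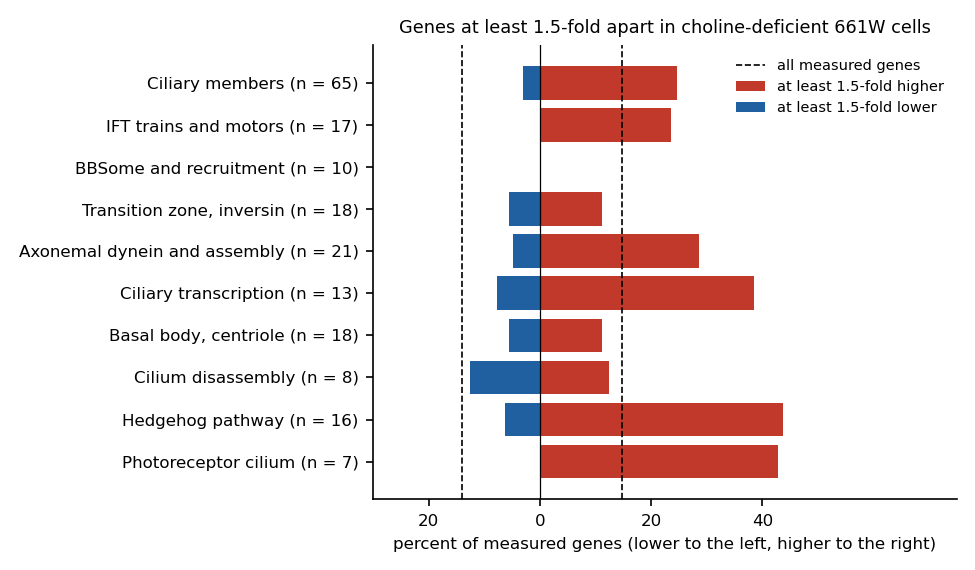
Percent of the measured genes of each list that were at least 1.5-fold higher (to the right) or lower (to the left) on the choline-deficient array, with the number measured; the dashed lines are the shares of all measured genes, 14.8% and 14.1%. The members stand at 24.6% and 3.08%, the hedgehog list has 7 of 16 genes higher, and the BBSome list has none on either side.

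Markers of other cell types moved on the same arrays. Of 8 fibroblast markers 7 were measured and 6 of these were higher, with summed signals of 81.5 on the choline-deficient and 9.57 on the choline-sufficient array in units of the 75th percentile, and Lum was above background on neither array. Of 9 markers of multiciliated cells 7 were measured, 2 were higher and 1 lower, and the summed signals were 27.6 and 19.7 on the choline-deficient and choline-sufficient arrays. Tubb4b, a widely expressed tubulin gene, made up most of these sums, which were 2.42 and 1.83 on these arrays without it. Gmnc and Sntn of this list were above background on neither array. Of 8 Muller glia markers 5 were measured, 3 were higher and 1 lower, with summed signals of 34.4 and 17.0 on these arrays, and Sox2 and Kcnj10 were above background on neither. Without Vim, which many cell types express, the sums were 2.80 on the choline-deficient and 1.94 on the choline-sufficient array. The part of these cell types in the differences of the ciliary genes was not tested.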

How the data were processed

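The members, lists and alternatives were chosen with earlier results of these data known, the X-box spellings after the differences were seen. The deposited files hold 1 intensity for every spot. The submitters' processing notes name Agilent Feature Extraction, version 12.1.1.1, and per the file headers its processed intensity had background subtracted and spatial trends removed, with no step between arrays. In the deposited value table each entry is a ratio. Comparison with the scanner values showed it to be that intensity divided by one number an array (choline-deficient 1609, choline-sufficient 1280), close to the 75th percentiles, so it is linear, not centred by gene and runs the same way. Its column medians were 0.0358 and 0.0337 in that order.

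Each log2 signal had the log2 75th percentile of non-control spots on its array taken off, in Python 3.11.15 with pandas 2.3.3. Outlier spots were left out, of which none was a member's. Spots of a probe were averaged, and a gene's value is the mean over its measured probes. Scanner errors were averaged over probes and propagated over both arrays. Alternative normalizations used limma 3.58.1 in R 4.3.3. The calculations were tested on simulated data. Named with values were all members past 1.5-fold, the one nearest to 0 in each role, those above background on 1 array and those whose probes disagree, with the largest differences of each list. A few genes that enter the counts are not reported here by name. Others named in the text were chosen after their values were seen. Gene names are those of the files, with list members also matched by RefSeq synonyms. The mm9 build of the probe positions is named in the file headers.

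Besides the 2 X-box spellings reported, 6 others were searched on both strands. With any 2 bases between the parts, GTTGCC and GG was in 17.6% of members with a window and 2.59% of all genes, GTTNCC and GGNAAC in 5.88% and 0.529%, and GTTGCC and GGCAAC in 4.41% and 0.111%. With any 3 bases between them, GTNNC and GNNAC was in 26.5% and 7.08%, and GTTGC and GNNAC in 20.6% and 1.67%. GTTGCC followed directly by ATGG was in 4.41% and 0.633%. These spellings overlap each other.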

Additional observations from a re-analysis of the deposited data

How the results depend on the processing

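No paired analysis was possible because each group holds 1 array. Median scaling shifted the median over all genes by -0.12 and spike-in scaling by 0.27, and the distance of the members' median from it was 0.40 with each of these, 0.34 after quantile normalization, 0.36 after cyclic loess and 0.13 after normexp. With 16 members higher and 2 lower in the setting reported, spike-in scaling gave 31 higher and 0 lower with a median of 0.57. Normexp gave 5 higher, 1 lower and a median of -0.065, and turned Cfap20dc to -0.065, Cfap53 to -0.16, Dnah11 to -0.11 and Dnah7a to -0.065. Quantile normalization and cyclic loess gave 1 lower each, and no filter on dim probes gave 22 higher (26.2%) and 5 lower (5.95%) over 84 members, against 14.6% and 15.7% of all genes. Keeping the measured probes above the median level left 33 members, 8 of them higher (24.2%) and 2 lower (6.06%), against 12.2% and 15.5% of all genes. At 2-fold, 6 were higher (9.23%) and 0 lower, against 7.67% and 3.88% of all genes. Spike-in scaling moves every difference by the same amount, and the cause of the other moves, normexp included, was not tested. Median scaling, the deposited table, the brightest probe and a size over 2 errors kept the counts within 1.5 times. The size over 2 errors could hardly change them, since with it 14.7% of all genes were still higher and 13.9% lower. Of the 18 called members, Dnah7b, Ift43, Ift80 and Ift88 kept their call under every alternative that gave a value for them. Ift43, Ift80 and Ift88 have 1 probe each, so the filters and probe choices could not change their values. The deposited table nearly repeats the scaling used here. Of the 21 members with levels under -5 on both arrays, where signals are near background, 20 are dynein heavy chain, radial spoke or CFAP genes. Having 1 array per group limits every comparison.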
